A study of Arabidopsis thaliana with 36 samples.

Results

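Leaf 6 of wild-type (WT) Col-0 plants was compared at T4, which was day 29 after stratification, with leaf 6 at T2, which was day 27. The comparison uses 6 of the 36 libraries of the series, the 3 WT libraries of T4 and the 3 of T2, and takes in all 19437 genes of the deposited table. The WT plants carried no mutation and no transgene, received no experimental treatment (the soil was treated against gnat larvae and watered with fertilizer), had not bolted when they were picked, and grew in long days under low light. The other libraries came from WT at T0 and T6 (days 25 and 31) and from TM1 and TM2 at all 4 time points. TM1 and TM2 are isolates of 1 genotype, the atx1 atx3 atx4 triple mutant (TM) with the T-DNA insertion alleles SALK_149002, GABI_128H01 and SALK_060156, and the harvested TM plants had bolted at days 24 and 25. They serve here only to show how leaves of another genotype changed over the same days.

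For each group 10 leaves were pooled and ground, and 3 portions of the powder gave the libraries A, B and C. P-values therefore measure how far libraries from the same powder differ, not how far plants differ, and a difference between time points cannot be told apart from a difference between the pools of plants. All leaves were harvested in the same morning hours. The libraries held 8621434, 6927284 and 7473161 reads at T4 (A, B and C), against 11552963, 7027892 and 5276772 reads at T2. Values are FPKM, in which read numbers are scaled to gene length and to library depth. The 6 leaf mesophyll markers searched for were all in the table, with a summed level of 13234 to 14678 FPKM at T4 and 12874 to 14904 FPKM at T2, while the 8 flower and meristem markers and 4 of the 5 root markers were not. By an adjusted p under 0.05, 1 mesophyll marker was higher at T4 and 2 were lower, while 14.5% of all genes were higher and 11.5% lower. Of 4 guard cell markers 2 were lower, with sums of the 4 at 28.6 to 31.1 FPKM at T4 and 37.1 to 41.9 FPKM at T2. Of 4 vascular markers 1 was lower, with sums of 50.1 to 59.2 FPKM at T4 and 56.7 to 59.4 FPKM at T2. The part of cell types in the results was not tested.

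A leaf that has stopped expanding passes through a mature phase before it senesces. In that phase growth functions, such as wall loosening and ribosome production, give way to maintenance and to the recycling of nitrogen, sulfur and other nutrients, and transcription factors of the NAC and WRKY families are known to act in the move to senescence. Abscisic acid (ABA), sugar supply and mineral supply are known inputs to this move.

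The WT leaf changed broadly over these 2 days. With limma and Benjamini-Hochberg adjustment over all genes, 2825 genes (14.5% of 19437) were higher at T4 with an adjusted p under 0.05 and 2234 (11.5%) were lower. A change of at least 2-fold was also reached by 712 genes that rose (3.66%) and 260 that fell (1.34%), and these 972 genes are called past the threshold below. Of them 73.3% rose, and the share was 68.7% with median ratio scaling (646 against 294 genes), 64.8% with quantile normalization (597 against 324) and 64% with limma voom on recovered reads (990 against 558). Changes of at least 4-fold were reached by 91 genes that rose and 19 that fell, and the largest log2 changes were 4.37 and -2.79. The median log2 change of all genes was 0.03 on these values, which are scaled to library depth. Unless a fold is given, WT counts of list members below use the adjusted p alone and stand beside 14.5% of all genes higher and 11.5% lower.

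Libraries of 1 time point were much alike. On log2(FPKM + 1) the correlation across genes lay between 0.9836 and 0.9873 for pairs within T4, between 0.9779 and 0.9805 within T2 and between 0.9513 and 0.9615 for pairs that joined the time points. The SD of the log2 difference of a gene was 0.318 to 0.422 within a time point and 0.555 to 0.626 between them. Genes of a library are not independent replicates, and these values describe the libraries only.

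**Figure D1:**
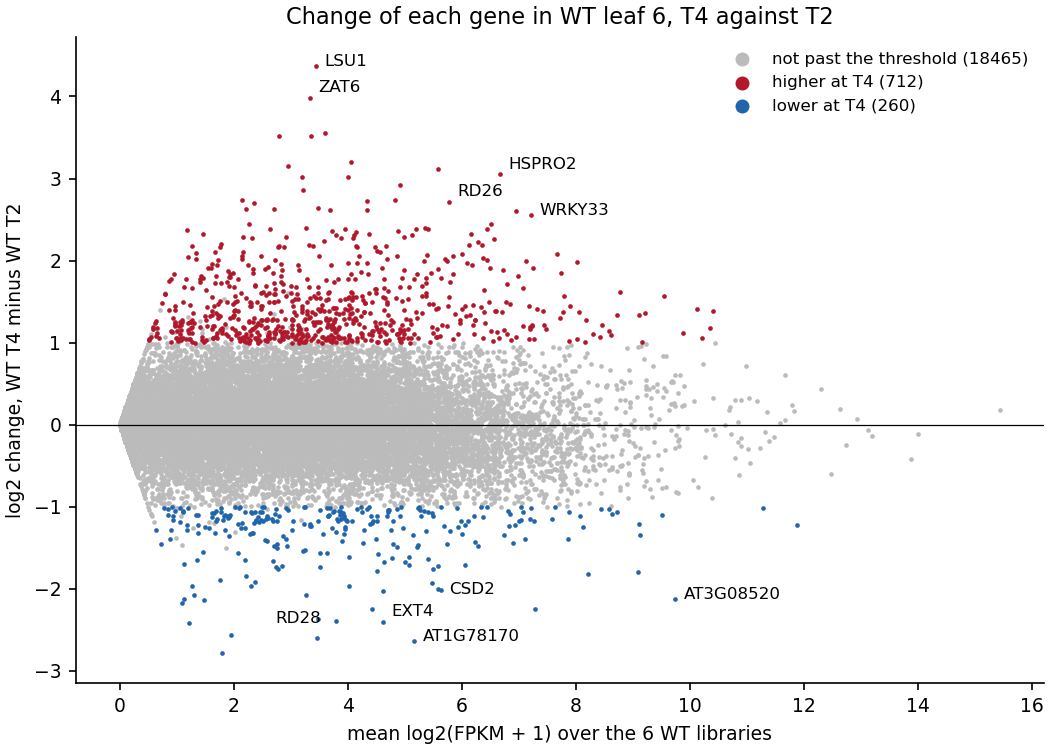
Log2 change of each of the 19437 genes in WT leaf 6, T4 minus T2 (vertical axis), against its mean log2(FPKM + 1) over the 6 libraries (horizontal axis). Red points are the 712 genes higher at T4 and blue points the 260 genes lower at T4 that passed the threshold, and the named genes reach from 4.37 for LSU1 to -2.64 for AT1G78170.

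The gene with the largest rise was LSU1 (AT3G49580), 1 of a small family named for its response to low sulfur. LSU1 measured 52.8, 50.9 and 42.0 FPKM in the T4 libraries A, B and C, against 2.52, 0.827 and 1.1 FPKM in the T2 libraries, a log2 change of 4.37 ± 0.28 (SE, limma adjusted p = 7.6e-14). LSU3 (AT3G49570), its neighbour on chromosome 3, measured 47.9, 49.3 and 38.1 FPKM at T4 and 4.05, 4.63 and 5.39 FPKM at T2 (log2 change 3.02). LSU2 (AT5G24660) was already well expressed at T2, at 52.6, 35.8 and 49.4 FPKM, against 176, 208 and 143 FPKM at T4. In all 3 genes every T4 library was above every T2 library. Such a lack of overlap was common, in 704 of the 712 genes that rose past the threshold and 255 of the 260 that fell.

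Sulfate taken up by a plant is activated, reduced by APS reductase and built into cysteine, from which glutathione and methionine are made. The list of sulfur deficiency genes had 10 members in the table, of which 9 rose, with a median log2 change of 1.62 beside 0.03 for all genes. All 3 APS reductase genes rose. APR3 (AT4G21990) changed most, with 115, 111 and 96.0 FPKM at T4 and 33.8, 26.3 and 28.7 FPKM at T2 (log2 change 1.83), while APR1 changed by 0.74 and APR2 by 0.58. APR3 overlaps ATG8A on the other strand, and whether reads were counted by strand is not given in the sources used here. SDI1 (sulfur deficiency induced), a protein that holds down glucosinolate synthesis, measured 4.35, 5.80 and 2.87 FPKM at T4 and at most 0.338 FPKM at T2. SHM7, a member of the serine hydroxymethyltransferase family, rose by 1.42 and GGCT2;1, an enzyme that breaks down glutathione, by 0.96. The vacuolar sulfate exporter SULTR4;2 had a log2 change of 0.33 and did not pass the test.

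The 250 bases before the annotated starts of LSU1 and LSU3 are shown because these neighbouring genes were among the 15 largest rises. The sequences are from the RefSeq copy of TAIR10.1 and both lie on the minus strand, LSU1 at chr3:18375941-18376190 and LSU3 at chr3:18373148-18373397. They are written 5′ to 3′ in the direction of the gene, and capitals mark ACGTG on either strand, a core bound by many bZIP and bHLH factors.
LSU1: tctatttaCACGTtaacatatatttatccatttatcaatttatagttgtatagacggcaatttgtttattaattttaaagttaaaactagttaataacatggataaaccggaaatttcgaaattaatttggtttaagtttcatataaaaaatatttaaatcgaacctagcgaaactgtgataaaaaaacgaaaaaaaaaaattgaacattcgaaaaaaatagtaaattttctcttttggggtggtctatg
LSU3: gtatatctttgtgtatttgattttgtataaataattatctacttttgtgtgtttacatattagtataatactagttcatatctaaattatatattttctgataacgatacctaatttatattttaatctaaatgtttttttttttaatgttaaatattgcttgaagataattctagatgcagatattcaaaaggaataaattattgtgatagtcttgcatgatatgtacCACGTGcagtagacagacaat
LSU1 had 1 match and LSU3 had 2, which overlap in a palindrome close to the start. ACGTG was found in 4 of the 10 sulfur promoters and in 23.3% of the 19331 promoters of genes in the table. GAGAC, the core of a known sulfur-responsive element, was in 2 of the 10 (20%) and in 25.3% of all.

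Genes that respond within minutes to touch, wounding or elicitors formed the list with the largest median change, 2.08. Of its 13 members 12 rose, and TCH2, with a log2 change of 0.12, did not pass. ZAT6 (AT5G04340), a zinc finger repressor, measured 36.7, 37.3 and 42.8 FPKM at T4 and 0.976, 1.31 and 2.52 FPKM at T2, a log2 change of 3.98 ± 0.23 (adjusted p = 1.1e-14). Its relative ZAT10 rose by 2.63. The ethylene response factors ERF6, ERF104 and ERF5 rose by 2.74, 2.08 and 2.02, with ERF6 at 67.5, 68.2 and 82.3 FPKM at T4 and 8.95, 9.95 and 11.1 FPKM at T2. The zinc finger gene SZF1 rose by 2.32, and the touch genes TCH4, a xyloglucan endotransglucosylase, and TCH3, a calmodulin-like protein, by 2.38 and 1.38. For every one of these rises the T4 and T2 libraries did not overlap, as in 704 of all 712 genes that rose past the threshold.

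WRKY factors bind the W box and regulate defense and senescence. Of 53 WRKY genes measured 17 rose and 4 fell, with a median of 0.14. WRKY33 (AT2G38470), a regulator of camalexin synthesis, measured 371, 365 and 337 FPKM at T4 and 60.2, 59.4 and 60.1 FPKM at T2, a log2 change of 2.56 ± 0.08 (adjusted p = 1.4e-21). WRKY53 (AT4G23810), a known early positive regulator of leaf senescence, measured 50.3, 54.2 and 48.4 FPKM at T4 and 7.38, 7.14 and 6.13 FPKM at T2 (log2 change 2.72). WRKY40 and WRKY70 rose by 2.31 and 2.26. WRKY75, a known positive regulator of leaf senescence, had a log2 change of 0.00 and WRKY45 of 0.66, neither past the test. WRKY33 and WRKY53 overlap annotated genes on the other strand, whose log2 changes, where they were in the table, were -0.02 and -0.21.

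The promoters of WRKY33 and WRKY53 are shown because WRKY factors are known to bind promoters of their own family. WRKY33 lies on the plus strand, with the promoter at chr2:16107985-16108234, and WRKY53 on the minus strand, at chr4:12393983-12394232 (TAIR10.1). Capitals mark the W box, TTGACC or TTGACT, on either strand.
WRKY33: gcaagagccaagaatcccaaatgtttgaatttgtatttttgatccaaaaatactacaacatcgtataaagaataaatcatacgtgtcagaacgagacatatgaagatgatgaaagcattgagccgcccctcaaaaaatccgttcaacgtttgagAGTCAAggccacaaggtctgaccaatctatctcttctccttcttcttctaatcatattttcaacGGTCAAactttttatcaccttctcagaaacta
WRKY53: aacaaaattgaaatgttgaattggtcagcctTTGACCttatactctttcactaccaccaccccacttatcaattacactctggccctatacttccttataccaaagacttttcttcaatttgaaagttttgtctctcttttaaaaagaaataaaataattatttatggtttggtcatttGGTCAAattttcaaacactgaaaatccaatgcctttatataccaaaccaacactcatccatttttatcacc
Each held 2 matches. The W box was in 250 of 710 promoters of genes that rose past the threshold (35.2%), in 72 of 260 promoters of genes that fell (27.7%) and in 27.9% of all promoters. A match says only that these letters are in the window.

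ABA is made by cleavage of carotenoids through NCED3, and its signal is held down by phosphatases of the PP2C family, whose genes are themselves induced by ABA. The list of ABA and drought genes had 21 members in the table, of which 12 rose and 3 fell, with a median of 0.61. Several PP2C genes were among those that rose. PP2CA (AT3G11410) measured 266, 288 and 286 FPKM at T4 and 75.6, 60.9 and 71.3 FPKM at T2, a log2 change of 2.00 ± 0.10 (adjusted p = 5.0e-16), and HAI1, HAI2, ABI1 and ABI2 rose by 1.62, 1.57, 1.37 and 0.42 (ABI2 did not pass without T4 library A, adjusted p = 0.056, or T2 library C, adjusted p = 0.069). NCED3 (AT3G14440) measured 12.9, 11.6 and 11.6 FPKM at T4 and 2.1, 3.20 and 3.52 FPKM at T2 (log2 change 1.74). RD26 (AT4G27410), a NAC factor induced by drought, measured 140, 135 and 141 FPKM at T4 and 20.0, 21.3 and 19.7 FPKM at T2, a log2 change of 2.71 ± 0.09 (adjusted p = 1.6e-21). The narrow spread within each time point gave RD26 one of the smallest p-values among the genes named.

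The 3 members that fell encode proteins that accumulate in drying tissue. LEA4-5 measured 3.66, 3.88 and 1.56 FPKM at T4 and 8.09, 10.6 and 11.1 FPKM at T2 (log2 change -1.48). The dehydrin RAB18 measured 151, 151 and 163 FPKM at T4 and 251, 214 and 229 FPKM at T2 (-0.57), and RD22 changed by -0.48. RAB18 overlaps AT5G66410 on the other strand, which changed by -0.63. RD29B, another late ABA target, rose by 1.27 at a low level. RD20 had a log2 change of -0.05 and did not pass.

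Promoters of 3 ABA genes that rose and of LEA4-5, which fell, are shown because all 4 hold ACGTG, the core of the ABA-responsive element. All lie on the minus strand of TAIR10.1, RD26 at chr4:13709171-13709420, PP2CA at chr3:3585851-3586100, HAI2 at chr1:2282829-2283078 and LEA4-5 at chr5:2090431-2090680. Capitals mark ACGTG on either strand.
RD26: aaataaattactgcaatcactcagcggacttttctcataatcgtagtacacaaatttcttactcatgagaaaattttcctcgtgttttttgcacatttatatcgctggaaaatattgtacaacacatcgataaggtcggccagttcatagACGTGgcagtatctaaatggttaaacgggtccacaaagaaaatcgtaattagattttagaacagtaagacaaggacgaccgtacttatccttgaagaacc
PP2CA: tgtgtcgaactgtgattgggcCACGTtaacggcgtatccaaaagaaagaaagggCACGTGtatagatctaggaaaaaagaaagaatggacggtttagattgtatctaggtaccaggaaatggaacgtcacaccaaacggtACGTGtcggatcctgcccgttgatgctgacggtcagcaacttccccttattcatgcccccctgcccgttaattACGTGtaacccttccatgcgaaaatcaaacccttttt
HAI2: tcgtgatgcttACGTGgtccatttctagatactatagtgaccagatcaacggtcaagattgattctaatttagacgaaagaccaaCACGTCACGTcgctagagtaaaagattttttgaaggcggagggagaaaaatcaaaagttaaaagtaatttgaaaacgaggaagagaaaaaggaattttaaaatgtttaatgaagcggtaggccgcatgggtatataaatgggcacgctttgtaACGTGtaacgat
LEA4-5: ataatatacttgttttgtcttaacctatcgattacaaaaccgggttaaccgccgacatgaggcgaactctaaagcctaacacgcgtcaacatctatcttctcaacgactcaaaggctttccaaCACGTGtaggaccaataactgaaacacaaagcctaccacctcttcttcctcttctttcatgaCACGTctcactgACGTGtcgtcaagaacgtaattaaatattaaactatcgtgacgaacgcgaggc
RD26 had 1 match, PP2CA 5, HAI2 4 and LEA4-5 4. ACGTG was in 13 of the 21 promoters of the ABA list (61.9%), in 29.3% of the promoters of genes that rose past the threshold and in 20.8% of those that fell, against 23.3% of all promoters.

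Cold-response genes rose in 11 of 13 cases, with a median of 0.80. The regulators CBF1, CBF3 and CBF2, adjacent and near-identical genes among which reads can be split, rose by 2.05, 1.28 and 1.2 at low levels, CBF1 with 10.1, 10.8 and 10.0 FPKM at T4 and 0.915, 2.11 and 2.40 FPKM at T2. Their targets, which protect membranes and proteins, were among the most abundant genes named. COR47 measured 1593, 1580.1 and 1523 FPKM at T4 and 999, 874 and 949 FPKM at T2 (log2 change 0.74), and COR413-PM1, COR15B and COR15A rose by 1.07, 1.01 and 0.84. RCI2B, a small membrane protein induced by cold, was among the 15 largest rises, at 6.66, 13.8 and 12.1 FPKM at T4 and 0, 0.389 and 2.59 FPKM at T2 (log2 change 2.74 ± 0.43, adjusted p = 7.4e-06).

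**Figure D2:**
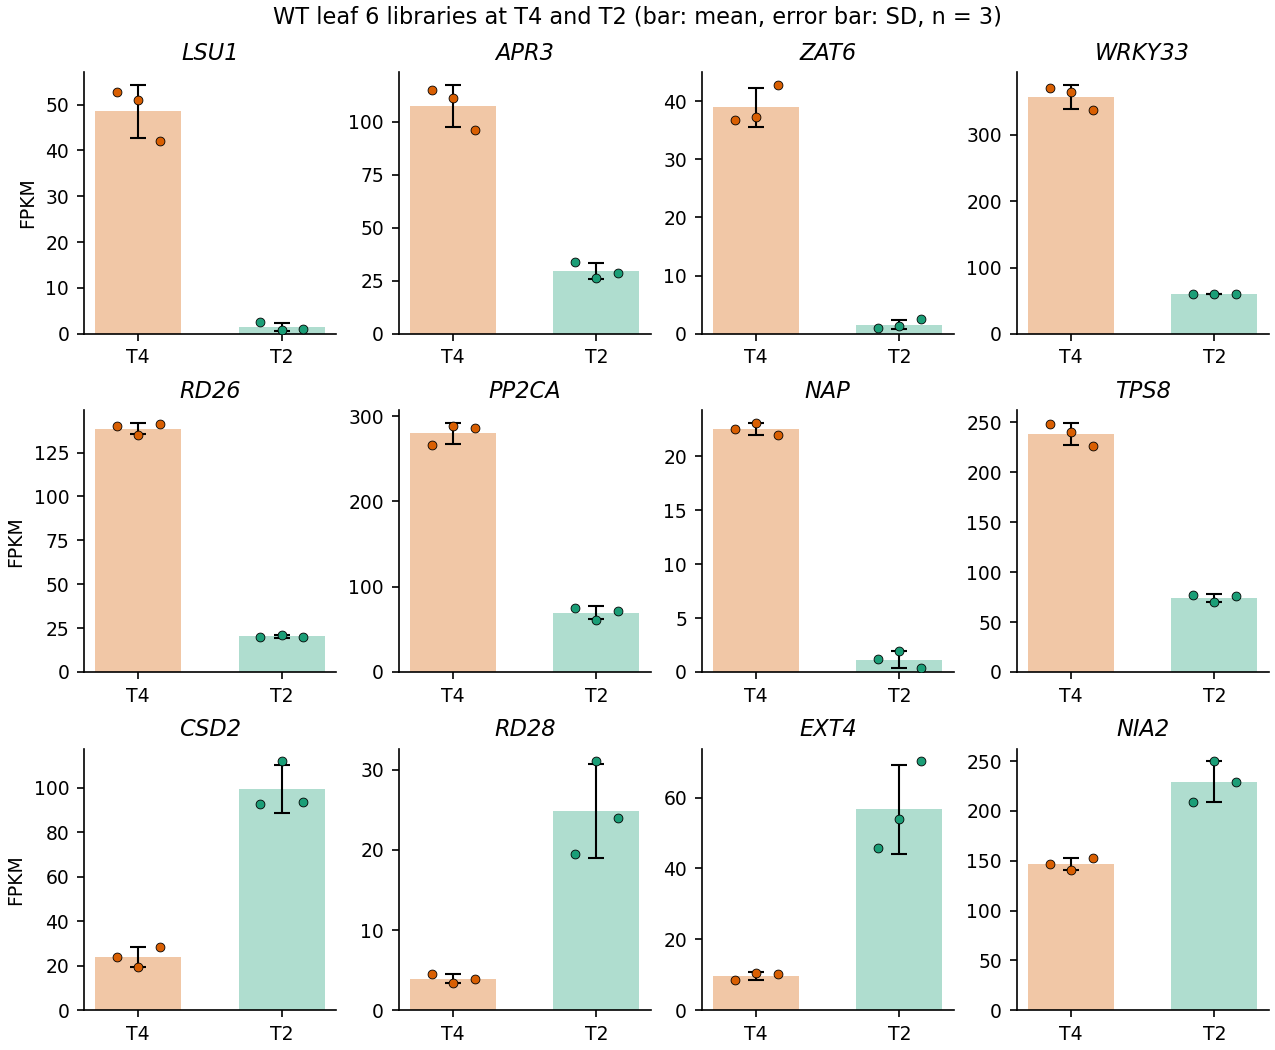
FPKM of 12 genes in the 3 WT libraries of T4 (left, orange) and the 3 of T2 (right, green) as points, with the mean as a bar and the SD as an error bar (n = 3). The T4 points lie above the T2 points for LSU1, APR3, ZAT6, WRKY33, RD26, PP2CA, NAP and TPS8 and below them for CSD2, RD28, EXT4 and NIA2.

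Genes known to rise in darkness and to fall when sugar is supplied rose in 14 of 21 cases, with a median of 0.84. SEN1 (AT4G35770), a classical dark-inducible gene, measured 12.8, 12.1 and 11.7 FPKM at T4 and 1.78, 2.79 and 2.34 FPKM at T2, a log2 change of 2.01 ± 0.15 (adjusted p = 4.4e-12). TPS8 and TPS11, which encode class II trehalose phosphate synthase proteins, rose by 1.66 and 1.5, DRM1 by 1.41, the transcription factor BZIP1 by 1.37, the raffinose synthase family gene DIN10 by 1.28 and the hexose transporter STP1 by 1.15. ASN1, the asparagine synthetase that is repressed by sugar, had 5.25, 4.43 and 7.03 FPKM at T4 and 2.62, 2.3 and 2.07 FPKM at T2 (0.96). DIN11 and TPS10, with log2 changes of -0.52 and -0.18, did not pass. HSPRO2 (AT2G40000), known for basal resistance and as a gene that responds to low energy, was the most abundant of the 15 largest rises, at 306, 299 and 275 FPKM at T4 and 38.8, 30.5 and 33.8 FPKM at T2 (log2 change 3.06 ± 0.11, adjusted p = 1.8e-19). CNI1, a ubiquitin ligase that acts in the balance of carbon and nitrogen, rose by 2.92, and AT2G20670, annotated as a DUF506 protein, by 3.12.

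Most transcription factors that act in senescence rose. Of 20 NAC and WRKY factors of senescence 14 rose, with a median of 1.14. NAP (AT1G69490), a NAC factor that promotes leaf senescence through ABA, measured 22.5, 23.1 and 22 FPKM at T4 and 1.18, 1.94 and 0.345 FPKM at T2, a log2 change of 3.52 ± 0.22 (adjusted p = 5.9e-14). ORE1, a central positive regulator, measured 3.81, 3.65 and 4.96 FPKM at T4 and 0, 0.240 and 0.160 FPKM at T2 (log2 change 2.18), and NAC032, NAC102, NAC019, NAC046, ATAF1 and ORS1 rose by 2.05, 1.91, 1.84, 1.67, 1.53 and 1.19. NAC055 had 74 reads in the T4 libraries together and was at 0 in each T2 library, which is at least 25.6-fold higher against a floor of 3 reads over the group. JUB1, a known negative regulator of senescence, had a log2 change of 0.07 and did not pass. In the whole NAC family 21 of 66 members rose and 5 fell, with a median of 0.12.

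Of 14 senescence-associated genes 7 rose, with a median of 0.53. The nitrogen recycling genes GLN1.1 (a cytosolic glutamine synthetase), GDH1 (a glutamate dehydrogenase) and PPDK rose by 0.99, 0.95 and 1.11, and SAG21 by 1.37. The nuclease gene BFN1 and the nitrilase gene NIT2, which are used as markers of senescence, had log2 changes of -0.46 each and did not pass. The ATG8 proteins coat the autophagosome, and 4 of their 9 genes rose. ATG8C (AT1G62040) measured 22.4, 28.4 and 38.7 FPKM at T4 and 3.54, 4.25 and 7.54 FPKM at T2 (log2 change 2.36), ATG8E rose by 1.18, ATG8B by 0.66 (not past the test without T4 library C, adjusted p = 0.065, or T2 library C, adjusted p = 0.067) and ATG8F by 0.60. ATG8D and ATG8G, at -0.05 and 0.18, did not pass.

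Nitrate genes moved both ways, with 4 of 13 higher and 5 lower and a median of -0.16, beside 14.5% of all genes higher and 11.5% lower. The assimilation genes fell together. NIA1 (AT1G77760), a nitrate reductase, measured 38.2, 40.7 and 32.3 FPKM at T4 and 72.9, 66.9 and 67.0 FPKM at T2 (log2 change -0.88), the second nitrate reductase gene NIA2 changed by -0.64, the nitrite reductase gene NIR1 by -0.62 and the transporter gene NRT1.1 by -0.58. NRT1.1 did not pass without T4 library C (limma adjusted p = 0.055) or T2 library B (limma adjusted p = 0.053). Without T4 library C or T2 library B 3 members were lower. The repressors of nitrogen genes LBD38 and LBD37 rose by 1.78 and 1.69, with LBD37 at 67.9, 70.4 and 71.0 FPKM at T4 and at most 23.5 FPKM at T2. BT1, whose family holds down nitrate uptake, rose by 1.79, and the ammonium transporter gene AMT1;1 by 0.82.

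Metal genes also moved both ways. The ferritins store iron, and FER1 (AT5G01600) measured 21.3, 22.8 and 21.2 FPKM at T4 and 57.0, 79.7 and 52.3 FPKM at T2, a log2 change of -1.47 ± 0.14 (adjusted p = 1.1e-09). Regulators that act when iron is short rose, BHLH101 by 1.80, BHLH39 by 1.02 and BHLH100 by 0.74 (BHLH100 did not pass without T4 library A, adjusted p = 0.061, or T2 library C, adjusted p = 0.11), as did OPT3, which loads iron into the phloem, by 1.17. In the list of iron deficiency genes, in which the ferritins stand as genes of iron excess, 7 of 14 members rose and 2 fell. FER3, a ferritin gene, was lower by a log2 change of -0.76, a call lost without T4 library B or C or T2 library A or B (adjusted p = 0.091, 0.16, 0.13 and 0.066 by limma), which left 1 lower member. CSD2 (AT2G28190), the chloroplast copper/zinc superoxide dismutase, was among the 15 largest falls at 23.7, 19.3 and 28.6 FPKM at T4 and 92.6, 112 and 93.5 FPKM at T2 (log2 change -2.02 ± 0.14, adjusted p = 3.3e-13), and CCS, the chaperone that gives it copper, changed by -0.80. Transcripts of CSD2, CCS and also CSD1 are known targets of a microRNA that is made when copper is short, whose part was not tested. CSD1 and the iron superoxide dismutase gene FSD1, at 0.21 and 0.51, did not pass, though FSD1 did without T4 library A (limma adjusted p = 0.046) or T2 library B (limma adjusted p = 0.037).

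Hormone and defense genes gave a mixed picture, beside 14.5% of all genes higher and 11.5% lower. ORA47 (AT1G74930), an activator of jasmonate synthesis, had the third largest rise, with 47.5, 37.7 and 37.6 FPKM at T4 and 4.05, 2.33 and 1.65 FPKM at T2 (log2 change 3.56 ± 0.23, adjusted p = 1.6e-13). It overlaps AT1G74929 on the other strand, which changed by 1.35. In the jasmonate list 6 of 21 members rose and 2 fell: the lipoxygenase gene LOX4 rose by 1.85, and the synthesis genes LOX2 and OPR3 changed by -0.54 each. Of 23 salicylic acid and defense genes 9 rose and 2 fell, or 1 without T4 library A or C or T2 library A. The regulators SARD1 and NPR3 rose by 1.19 and 1.15, while PR5, a late defense protein, measured 13.4, 11.5 and 9.01 FPKM at T4 and 49.1, 50.1 and 46.6 FPKM at T2 (-2.03). PR2 changed by -0.60, a call lost without T4 library A or C or T2 library A or C (adjusted p = 0.079, 0.15, 0.14 and 0.15 by limma). The synthesis gene ICS1 and PR1, at -0.09 and 0.21, did not pass.

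Of 11 ethylene genes 6 rose, among them ACS6 (1.73), which makes the ethylene precursor, and the EIN3-degrading F-box gene EBF2 (1.00). The type-A response regulators of cytokinin ARR6, ARR5 and ARR4 rose by 1.31, 1.22 and 0.99 (ARR6 did not pass in the fit to the groups compared alone, adjusted p = 0.078), in a list in which 6 of 11 members rose and 2 fell, or 0 to 1 without any library other than T4 A. Of 19 auxin genes 6 rose and 1 fell, with 0 to 2 lower when single libraries were left out. Of 16 gibberellin genes 1 rose, the receptor gene GID1C (0.83). The shares of all genes were 14.5% higher and 11.5% lower.

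**Figure D3:**
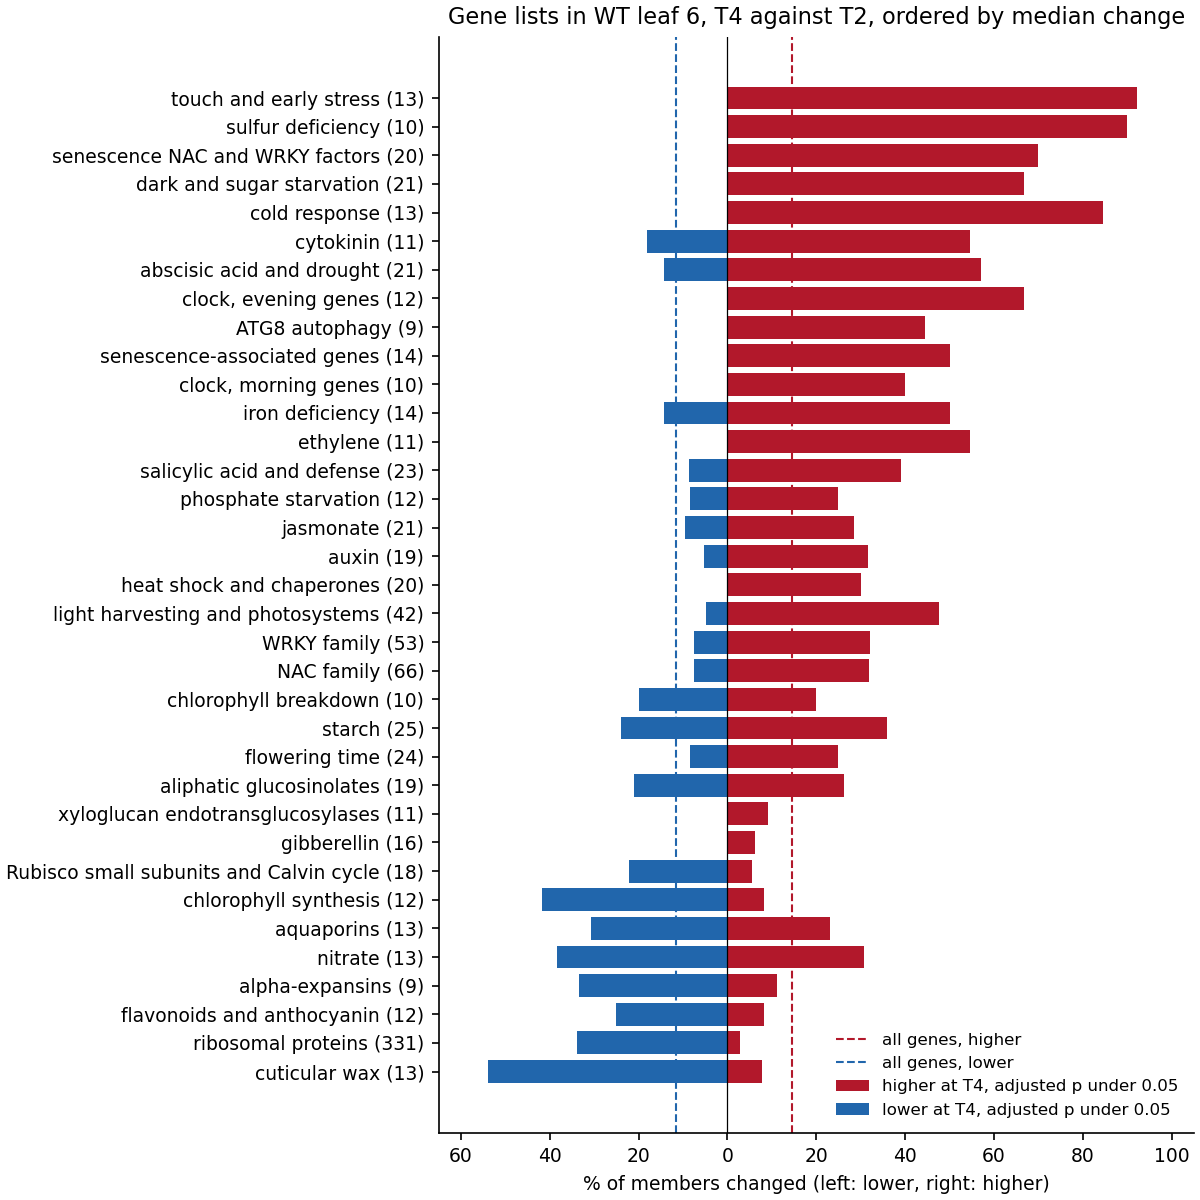
Percent of the members of each gene list that were higher (red, to the right) or lower (blue, to the left) at T4 with an adjusted p under 0.05, for lists with at least 8 members in the table, ordered by their median log2 change and with the number of members in brackets. Dashed lines are the shares of all genes, 14.5% higher and 11.5% lower, and touch and early stress genes (12 of 13 higher) stand at the top and cuticular wax genes (7 of 13 lower) at the bottom.

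Photosynthesis genes moved both ways, beside 14.5% of all genes higher and 11.5% lower. Of 42 genes for light harvesting and photosystem proteins 20 rose and 2 fell (1 without T2 library B), with a median of 0.24. LHCB1.4 (AT2G34430), 1 of a set of near-identical light harvesting genes among which reads can be split, measured 1639, 1711 and 2108 FPKM at T4 and 612, 731 and 703 FPKM at T2 (log2 change 1.41), whereas CAB2 of the same set measured 579, 576 and 611 FPKM at T4 and 948, 1062 and 981 FPKM at T2 (-0.76). The photosystem I subunit gene PSAL rose by 1.36, LHCB4.2 by 1.13 and LHCB3 by 0.95. Of 18 genes of the Rubisco small subunit and the Calvin cycle 1 rose and 4 fell, and of 12 chlorophyll synthesis genes 1 rose (0 without T4 library A or C or T2 library A) and 5 fell, with medians of -0.12 in both lists. The summed level of the Rubisco and Calvin cycle genes was 12620.1 to 13272 FPKM at T4 and 15218 to 17990.2 FPKM at T2. That of the chlorophyll synthesis genes was 1502 to 1634 FPKM at T4 and 1763 to 1818 FPKM at T2, so both sums were lower at T4. PORC, which reduces protochlorophyllide in the light, changed by -0.78 and HEMA1, which starts the pathway, by -0.47. Of 10 chlorophyll breakdown genes 2 rose, or 0 to 1 without T4 library A or B or T2 library B, and 2 fell. Counts this small lie near the shares of all genes. NYE1 and PAO, which act early in breakdown in senescing leaves, had log2 changes of 0.15 and 0.09 and did not pass.

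Clock genes were read as markers of the hour of harvest. Of 12 evening genes 8 rose, with a median of 0.57, and of 10 morning genes 4 rose, with a median of 0.48. GI measured 13.5, 10.3 and 11.6 FPKM at T4 and 4.60, 4.68 and 5.54 FPKM at T2 (log2 change 1.11), PRR5 rose by 0.89, PRR7 by 0.77 and TOC1 by 0.64. The morning oscillator genes CCA1 and LHY had log2 changes of -0.36 and 0.23 and did not pass, though without T4 library A CCA1 did, at -0.52 (limma adjusted p = 0.043). From T0 to T2 and from T4 to T6 the morning list had medians of -1.31 and 0.93, beside 0.13 and -0.06 for all genes. The evening list had 0.44 and 0.10, and the clock output list -0.82 and 0.45. Light harvesting, cold, sugar and nitrate genes are also known to follow the time of day, and the part of the clock in their changes was not tested.

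In the flowering time list 6 of 24 members rose and 2 fell, with a median of 0.07 beside 0.03 for all genes. Of all genes 14.5% were higher and 11.5% lower. TEM2 (AT1G68840) and TEM1 (AT1G25560), related repressors of the floral signal gene FT, rose most. TEM2 measured 23.3, 20.2 and 22.8 FPKM at T4 and 1.4, 2.13 and 1.36 FPKM at T2, a log2 change of 3.15 ± 0.24 (adjusted p = 3.2e-12), and TEM1 rose by 2.06. The activator CO changed by -1.02 and AGL24 by -0.79, while SOC1 rose by 0.46. FT had a log2 change of -0.13 and did not pass.

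Single genes of walls and water flow were among the largest falls, while the lists of such genes moved both ways. EXT4 (AT1G76930), a wall glycoprotein, measured 8.49, 10.4 and 10.2 FPKM at T4 and 45.7, 54.0 and 70.3 FPKM at T2, a log2 change of -2.41 ± 0.19 (adjusted p = 7.3e-12). Of 9 alpha-expansins, which loosen walls, 3 fell and 1 rose: EXPA10 and EXPA4 changed by -1.39 and -1.33, and EXPA8 by 1.25. ATBFRUCT1, a cell wall invertase, measured 24.5, 24.8 and 20.1 FPKM at T4 and 91.1, 101 and 95.4 FPKM at T2 (-2.01). Of 13 aquaporins 4 fell and 3 rose. RD28 (AT2G37180) measured 4.55, 3.40 and 3.85 FPKM at T4 and 19.5, 31.1 and 24.0 FPKM at T2 (-2.37), and PIP2B, its near-identical neighbour with which reads can be shared, changed by -1.30.

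Cuticular wax genes gave the lowest median of all lists, -0.41, with 7 of 13 members lower and 1 higher. CER1, which makes alkanes, measured 1.02, 1.93 and 1.45 FPKM at T4 and 6.59, 7.91 and 8.79 FPKM at T2 (log2 change -1.84), and KCS1, which elongates fatty acids, changed by -1.62. The regulator MYB96 rose by 0.50. Wax is made by the epidermis, and of the 3 epidermis and trichome markers in the table PDF1 changed by -1.92, with 1.49, 2.32 and 1.29 FPKM at T4 and 8.64, 8.59 and 10.1 FPKM at T2, while GL2 and ATML1, at -0.09 and 0.04, did not pass. The 3 markers summed to 20.3 to 22.4 FPKM at T4 and 25.9 to 30.4 FPKM at T2, and GL1 was not in the table. In a whole leaf fewer cells of a type and less RNA per cell cannot be told apart, and the part of the epidermis in the wax result was not tested.

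Ribosomal proteins formed the largest set that moved down. Of 331 genes annotated as ribosomal proteins of the cytosol, plastid or mitochondrion 112 fell and 9 rose, with a median of -0.25, and their summed level was 23828 to 24445 FPKM at T4 and 36193 to 40342 FPKM at T2. At least 2-fold falls were seen in 16. AT3G08520, a gene for the very short protein L41, measured 461, 424 and 352 FPKM at T4 and 1534, 2745 and 1363 FPKM at T2 (log2 change -2.13 ± 0.34, adjusted p = 1.3e-05), and AT3G45030, of the S10p/S20e family, measured 8.92, 5.13 and 14.6 FPKM at T4 and 33.4, 64.2 and 44.6 FPKM at T2 (-2.25). The largest rises, of AT5G20180 (2.29) and emb2171 (2.08), were in genes of the same kind. Many ribosomal protein genes have near-identical copies, so single members are uncertain where reads could be split. The 7 cell cycle genes had log2 changes of -0.44 to 0.54. By limma 0 of them passed the adjusted threshold and 0 an unadjusted p under 0.05, and limma voom on recovered reads gave 0 in both cases, but limma fitted to the groups compared alone gave 1 higher and 1 lower by adjusted p.

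Counts in the other lists stood beside 14.5% of all genes higher and 11.5% lower. Of 20 heat shock and chaperone genes 6 rose, led by HSP70 (1.81), HSFB2A (1.57) and DREB2A (1.51), and of 7 genes of endoplasmic reticulum stress BZIP60 rose (0.83). Of 12 flavonoid genes 3 fell (1 without T2 library C) and 1 rose: the flavonol activator MYB111 measured 0.354, 0.110 and 0.204 FPKM at T4 and 4.36, 4.02 and 3.04 FPKM at T2 (-1.97), and MYBL2, a repressor of anthocyanin synthesis, rose by 2.18. Of 19 aliphatic glucosinolate genes 5 rose (3 without T4 library B or T2 library B or C) and 4 fell (2 without T2 library A). Of 25 starch genes 9 rose (4 without T4 library B), led by the maltose exporter MEX1 (1.09), and 6 fell, led by the cytosolic amylase BAM5 (-1.19). Of 12 phosphate starvation genes 3 rose and 1 fell (0 without T2 library A or B), with PAP17 at least 15.9-fold higher, from 46 reads in the T4 libraries and 0 in each T2 library. Of 5 leaf growth factors 2 rose (1 without T4 library C or T2 library A or B) and 1 fell. Of 11 listed xyloglucan endotransglucosylase genes, which do not include TCH4 of the early stress list, 1 rose, a call lost when most single libraries were left out, and of 6 clock output genes 1 rose.

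The largest falls outside these lists were in genes of little known role. AT4G12490, a lipid-transfer-like protein, measured 0, 0.367 and 0.681 FPKM at T4 and 9.47, 7.06 and 7.96 FPKM at T2 (log2 change -2.79 ± 0.24, adjusted p = 1.1e-10), and AT1G78170, annotated as a ubiquitin ligase, measured 14.2, 11.9 and 14.0 FPKM at T4 and 81.0, 121 and 70.7 FPKM at T2 (-2.64). The glycine-rich protein genes AT4G29020 and AT1G04800 changed by -2.40 and -2.25, the receptor kinase gene CRK42 by -1.97, and AT5G61412, AT3G61920 and AT1G73325, the last a Kunitz protease inhibitor, by -2.60, -2.56 and -2.14. Among the rises AT1G21326, with a VQ motif, AT4G33467, AT3G12587 and the F-box gene PP2-B13 changed by 3.52, 3.20, 3.02 and 2.86. AT4G33467, PP2-B13, AT4G12490, AT1G04800 and CRK42 overlap a gene on the other strand, and AT3G12587 overlaps genes on its own strand, so part of their reads could belong to the partner. The same doubt holds for other genes named above, among them ABI1, SARD1 and NAC102. Their partners on the other strand changed by 0.89, 0.87 and 0.69.

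The triple mutants grew beside the WT plants, and their change over the same days uses no WT library. From T2 to T4 TM1 had 628 genes that rose (3.23%) and 359 that fell (1.85%) past the threshold, and TM2 had 192 (0.988%) and 224 (1.15%). Of the 712 genes that rose in WT 261 also rose in TM1, which is 36.7% of the WT genes and 41.6% of those of TM1, and 90 rose in TM2 (12.6% and 46.9%). Of the 260 that fell in WT 73 fell in TM1 (28.1% and 20.3%) and 46 in TM2 (17.7% and 20.5%). In neither isolate past the threshold were 440 of the genes that rose (61.8%) and 177 of those that fell (68.1%).

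The difference between the WT change and the mean of the TM changes was tested in the same fit. It passed an adjusted p under 0.05 in 2067 genes toward a higher WT change (10.6%) and in 1293 toward a lower one (6.65%), and with at least 2-fold in 577 (2.97%) and 207 (1.06%). The share of these 784 genes that lay toward a higher WT change was 73.6%, and it was 60% with median ratio scaling (424 against 283 genes) and 58.6% with quantile normalization (415 against 293). Among the genes that rose past the threshold in WT 296 (41.6%) had such a difference, and among those that fell 68 (26.2%) had it. Both shares are raised by the choice of genes with a large WT change, since the same WT libraries enter the difference.

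Most ABA, cold, sulfur, early stress and light harvesting genes showed this difference. Toward a higher WT change, adjusted p under 0.05 was reached by 15 of 21 ABA genes, 10 of 13 cold genes, 8 of 10 sulfur genes, 9 of 13 touch and early stress genes and 29 of 42 light harvesting genes. Toward a lower WT change it was reached by 2 of the touch and early stress genes and 1 of the ABA genes. The TM side is a mean of isolates that differed. Of the 13 touch and early stress genes 11 rose in TM1 (median 1.53) and 7 in TM2 (0.66). Of the 10 sulfur genes 6 rose in TM1 (0.78), while in TM2 0 rose and 3 fell (0.07). In the light harvesting list 0 rose in either isolate, and 16 fell in TM1 and 25 in TM2. These TM counts use an adjusted p under 0.05 with no fold limit, unlike the TM shares of all genes given above. Past the threshold 9 touch and early stress genes rose in TM1 and 4 in TM2, beside 3.23% and 0.988% of all genes. Of the sulfur genes 4 and 0 did, and of the light harvesting genes 0 rose or fell in either isolate. For RD26 the log2 change was 2.71 in WT, 0.20 in TM1 and -0.08 in TM2, a difference of 2.65 (adjusted p = 3.0e-18). For PP2CA it was 2.00 in WT, -0.16 in TM1 and -0.59 in TM2 (difference 2.38, adjusted p = 8.8e-15). LHCB1.4 changed by 1.41 in WT, -0.45 in TM1 and -0.44 in TM2 (difference 1.85). In wax genes 9 of 13 differed the same way, since they fell further in the TMs, with CER1 at -1.84 in WT, -4.14 in TM1 and -2.45 in TM2.

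A smaller number of genes went the other way. NIA1 changed by -0.88 in WT, 1.96 in TM1 and 1.58 in TM2, a difference of -2.65 (adjusted p = 3.3e-13), and NIA2 by -0.64, 0.92 and 1.00 (difference -1.60). FER1 changed by -1.47 in WT, 0.17 in TM1 and 0.32 in TM2 (difference -1.71). Of 331 ribosomal protein genes 69 differed toward a lower WT change and 9 toward a higher one. The stress-response factors WRKY33 and ERF6 rose in WT and TM1 by nearly the same amount, 2.56 and 2.58 for WRKY33 and 2.74 and 2.86 for ERF6, and less in TM2, by 0.67 and 1.18. Nearby values do not show that the isolates and WT changed alike. LBD37, at 1.69 in WT, 1.86 in TM1 and 0.82 in TM2, had a difference of 0.35 that missed the threshold (adjusted p = 0.083).

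**Figure D4:**
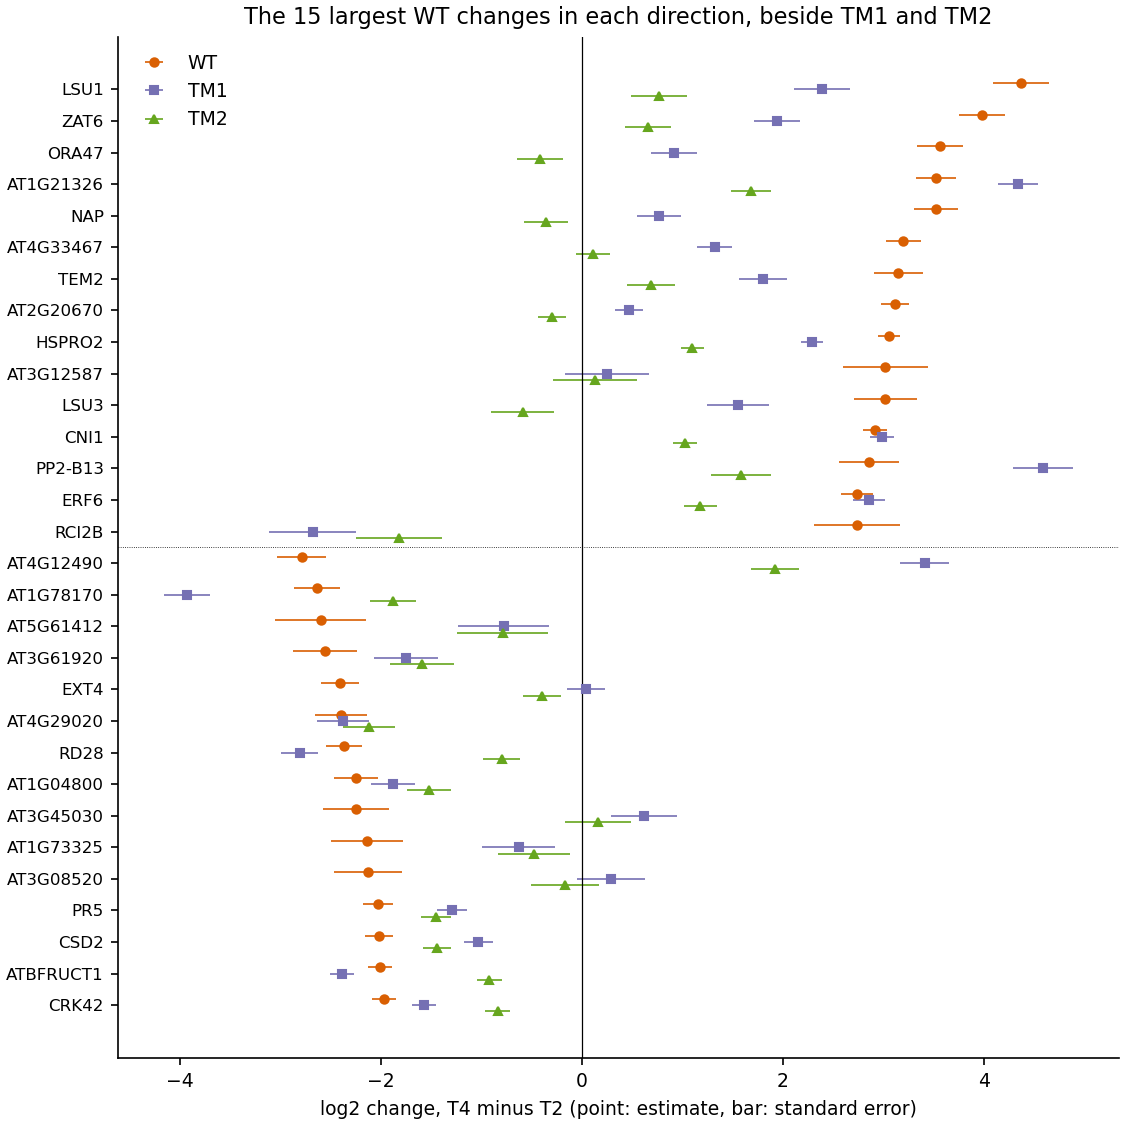
Log2 change from T2 to T4 (horizontal axis, with its standard error) of the 15 genes with the largest rise and the 15 with the largest fall in WT, for WT (circles), TM1 (squares) and TM2 (triangles). RCI2B rose by 2.74 in WT and changed by -2.68 in TM1 and -1.82 in TM2, and AT4G12490 changed by -2.79 in WT, 3.41 in TM1 and 1.92 in TM2.

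The earlier and later WT time points show from which level each gene moved. The changes from T0 to T2 and from T4 to T6 share libraries with the change described here, so levels are given side by side. In 1 kind of course the level was low at T0 and T2 and high at T4 and T6. LSU1 averaged 0.659, 1.48, 48.6 and 48.6 FPKM at T0, T2, T4 and T6, and RD26 averaged 9.42, 20.3, 139 and 133 FPKM. NAP was a less clear case, at 5.24, 1.16, 22.5 and 15.9 FPKM. CSD2 showed the reverse step, at 107, 99.2, 23.9 and 17.1 FPKM, as did AT3G08520, at 1423, 1881, 412 and 405 FPKM.

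In the other kind T2 had the lowest or the highest mean of the 4 time points. That was also true of NAP and AT3G08520 above, so the kinds overlap. WRKY33 averaged 261, 59.9, 358 and 215 FPKM at T0, T2, T4 and T6. SEN1 averaged 18.3, 2.31, 12.2 and 12.6 FPKM, and ERF6 52.7, 9.99, 72.7 and 41.2 FPKM. Among the falls RD28 had this form, at 4.99, 24.9, 3.93 and 3.43 FPKM. The T4 libraries of WRKY33 lay above its T0 libraries (229 to 288 FPKM) and those of SEN1 below its T0 libraries (14 to 22 FPKM), while those of RD28 overlapped the T0 libraries (3.74 to 6.38 FPKM). The touch and early stress list had a median log2 change of -0.80 from T0 to T2, 2.08 from T2 to T4 and -0.89 from T4 to T6, and the cold list had medians of 1.45, 0.80 and 0.54. The morning clock list had medians of -1.31, 0.48 and 0.93, and the part of the hour of harvest in these courses was not tested.

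**Figure D5:**
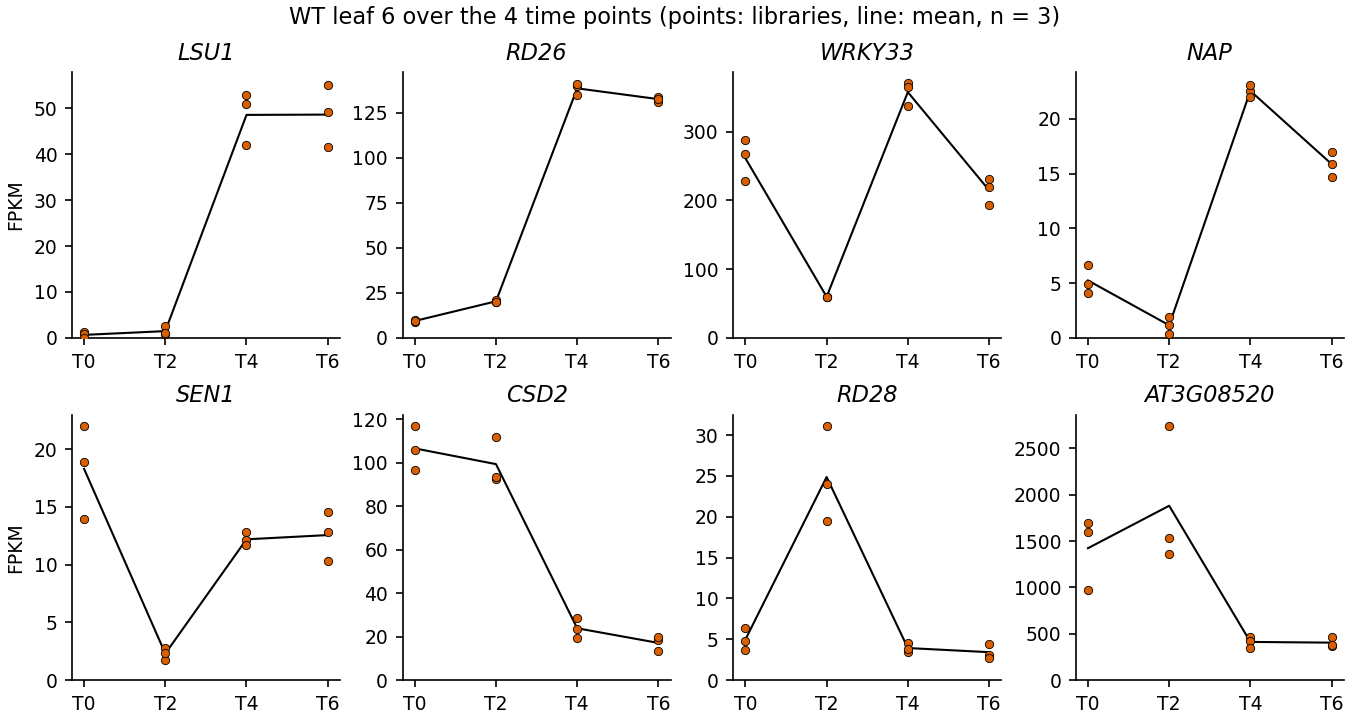
FPKM of 8 genes in WT leaf 6 at T0, T2, T4 and T6, with libraries as points and the mean of 3 as a line. In all 8 genes the T6 mean lay on the same side of the T2 mean as the T4 mean. WRKY33, SEN1, RD28, NAP and AT3G08520 had their lowest or highest mean at T2.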

How the data were processed

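Leaf 6 RNA of 12 groups gave 36 directional 3′ cDNA libraries. The authors used Rsubread for alignment to TAIR10, NOISeq for FPKM and HTSFilter to remove low genes, and the deposited FPKM of 19437 genes were used as they stood. Every column was mapped to a sample by its label. All values were whole reads to within 0.01, which gave depths of 4407618 to 11714474 reads (counting error only). limma 3.58.1 (R 4.3.3) was fitted to log2(FPKM + 1) with 12 group means, 24 residual degrees of freedom and a trend, and p-values were Benjamini-Hochberg adjusted. Fold changes are on the log2(FPKM + 1) scale, which understates those of low genes. The fit was tested on simulated data. Named were the 15 largest changes in each direction among genes past the threshold whose libraries did not overlap and whose higher mean was at least 5 FPKM, and list members, of which the examples given were picked with their values seen. Lists and members were chosen with earlier results of these data known. The ribosomal, WRKY and NAC lists were built from reference names after values were seen. Symbols and promoters came from RefSeq TAIR10.1, which held 19332 of the genes. Counts for lists use an adjusted p under 0.05 and stand beside 14.5% of all genes higher and 11.5% lower in WT. Alternatives changed the pseudocount, filter, scaling, trend, block, libraries, fold limit or tool. Figures were drawn with matplotlib 3.10.9.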

Additional observations from a re-analysis of the deposited data

Results flagged for a closer look

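The test of the WT change against the mean of the TM1 and TM2 changes from T2 to T4 drew out 17 of the 30 genes with the largest WT changes, by an adjusted p under 0.05 and a difference of at least 2-fold, 11 toward a higher and 6 toward a lower WT change. Toward a higher WT change the log2 difference was 4.99 for RCI2B, 3.31 each for ORA47 and NAP, 3.04 for AT2G20670, 2.83 for AT3G12587, 2.80 for LSU1, 2.68 for ZAT6, 2.53 for LSU3, 2.48 for AT4G33467, 1.90 for TEM2 and 1.37 for HSPRO2. Toward a lower WT change it was -5.45 for AT4G12490, -2.64 for AT3G45030, -2.24 for EXT4, -2.19 for AT3G08520, -1.82 for AT5G61412 and -1.58 for AT1G73325. Genes with a large WT change can show a large difference for that reason alone, since the WT libraries enter both values.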

How the results depend on the processing

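The number of genes past the threshold between WT T4 and T2 was 972 and depended mostly on the fold limit, since it was 5059 with no limit on the fold change and 3030 with at least 1.5-fold. It was 414 with a pseudocount of 5, which shrinks the changes of low genes, and 1548 with limma voom on recovered reads. Leaving out each library in turn gave 921 to 1058 genes. The number of genes whose WT change differed from the TM change was 784, and it was 3360 with no fold limit, 2370 with at least 1.5-fold and 285 with a pseudocount of 5, with 721 to 826 genes when single libraries were left out. Pseudocount 0.1, the filter on low genes, both scalings, the fit without a trend and the fit to the groups compared alone kept both counts within 1.5-fold.

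With the library letter as a replicate block the counts were 970 and 783. The letters did not pair the libraries, since T4 and T2 libraries of the same letter had correlations of 0.084, -0.048 and -0.014 over 16556 genes, and with the block no call changed among the genes named.

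Of the 174 genes named, 150 passed the test. Over 15 alternatives, which gave 2604 values, 0 reversed, 25 no longer passed and 10 passed where the reported value had not. The 25 belonged to 7 genes, namely PR2, FER3, ATG8B, BHLH100, ABI2, NRT1.1 and ARR6, and the cause was not tested. The 10 belonged to WRKY45, CCA1, DIN11 and FSD1. WRKY45 changed by 0.66 with the pseudocount of 1 and by 2.01 with a pseudocount of 0.1 (limma adjusted p = 0.022). Counts of 5 or fewer members of a list often moved by more than 1.5-fold when 1 library was left out.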

Other observations

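Among genes with a mean of at least 5 FPKM over the 6 WT libraries, 17.2% of the 192 genes of up to 500 bases were higher and 6.77% lower at T4 past the threshold. Of the 3469 genes of over 2000 bases 1.61% were higher and 0.461% lower. In TM1 10.4% of the short and 2.85% of the long genes were higher, and 1.56% and 1.27% lower. In TM2 the shares were 2.6% and 0.404% higher, and 3.12% and 0.548% lower. FPKM divide by gene length although these were 3′ libraries, and the part of this scaling was not tested.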
